A study of Arabidopsis thaliana with 24 samples.

Results

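Transcript levels of 10 cell division genes were followed in seedlings of Arabidopsis thaliana treated or not with abscisic acid (ABA), a plant stress hormone. The genes were chosen by their gene IDs and make up 10 of the 32833 genes measured. All 10 had values of at least 5.47 FPKM in every one of 24 libraries, so each passed the low-value filter without help from any single group. FPKM is the number of sequenced fragments scaled to exon length and to the mapped fragments of the library, so levels can be set roughly beside each other between genes. Between samples FPKM also depends on the make-up of each library, and other scalings were tried for that reason.

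RNA came from whole seedlings of 4 genotypes in the Columbia 0 background. These were wild type (WT), nrp1 nrp2, FyPP3DN and the combination labelled nrp1 nrp2 FyPP3DN. Each genotype was sampled after 24 h with 5 µM ABA and after 24 h without it, with 3 replicates in each of the 8 groups. The labels give an age of 5 days before treatment, whereas the series' design text gives 6 days of growth followed by 1 day of treatment. FYPP3 encodes a catalytic subunit of PP6, a protein phosphatase, and FyPP3DN is known as its dominant-negative form. The sources used here do not give the promoter of the transgene or the number of independent lines. Nothing in the labels says that replicates came from separate plates or sowings, so the p-values speak only of the spread among these samples, which may be technical.

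The depth of the libraries, read from the step size of the FPKM values, was 16.6 M to 29.1 M fragments (median 19.35 M). Plastid-encoded genes made up 9.61% to 18.8% of summed FPKM in 8 libraries and 0.0252% to 0.0877% in the other 16, and each group had 1 library of the first kind (plastid-rich) and 2 of the second (plastid-poor). FYPP3 (AT3G19980) was at 34.52 to 85.17 FPKM in FyPP3DN without ABA against 12.66 to 18.29 in WT, and at 22.53 to 29.28 against 15.97 to 16.69 with ABA. In the libraries carrying the combined label it was at 12.81 to 13.53 without ABA and 14.79 to 18.44 with ABA, which is no higher than WT without ABA and overlaps WT with ABA. FYPP3 was thus not raised in them, and they are called the labelled combination here. The labels give no gene IDs for nrp1 and nrp2. AT3G27090, followed here as one of the targeted genes, averaged 67.4 FPKM in WT without ABA, 20.0 in nrp1 nrp2, then 17.8 in the labelled combination. AT5G42050, followed as the other, was not reduced and averaged 30.9, 57.3 and 67.9 FPKM in the same 3 groups.

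Plant cells divide mainly in the root and shoot meristems and in young organs. D-type cyclins pass growth and hormone signals to the start of the cycle, and B-type cyclins drive mitosis. B-type cyclin-dependent kinases (CDKs) are a plant family that acts from G2 to mitosis. ABA is known to slow division in growing seedlings, in part through CDK inhibitors. In bulk seedling RNA, fewer dividing cells and less RNA per dividing cell cannot be told apart.

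Most of the genes have a known place in this sequence, and loci are given on TAIR10.1. CYCD3;1 (AT4G34160, chromosome 4, 16357421 to 16359565) is a D-type cyclin that responds to cytokinin and sugar. TSO2 (AT3G27060, chromosome 3, 9979841 to 9981620) encodes a small subunit of ribonucleotide reductase, which makes the deoxynucleotides for DNA synthesis. CYCA1;1 (AT1G44110, chromosome 1, 16774765 to 16777352) is an A-type cyclin. CDKB1;1 (AT3G54180, chromosome 3, 20059671 to 20061488), CDKB2;1 (AT1G76540, chromosome 1, 28720328 to 28722550) and CDKB2;2 (AT1G20930, chromosome 1, 7292389 to 7294746) are B-type CDKs. CDKB1;1 is also known for its part in the last division of the stomatal lineage. CYCB1;1 (AT4G37490, chromosome 4, 17621886 to 17624308), CYCB1;2 (AT5G06150, chromosome 5, 1859279 to 1861703) and CYCB1;4 (AT2G26760, chromosome 2, 11401118 to 11403433) are mitotic cyclins. CYCB1;1 is the usual reporter of cells at G2 and mitosis, and it is also induced by DNA damage. KN (KNOLLE, also SYP111, AT1G08560, chromosome 1, 2709525 to 2711000) is the syntaxin that fuses vesicles into the cell plate at cytokinesis.

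Genes of G2 and mitosis in plants commonly carry the mitosis-specific activator (MSA) element, bound by MYB3R factors, whereas genes of DNA replication commonly carry E2F sites. The 250 bases before the annotated start of each gene were searched on both strands for the MSA core AACGG and for the E2F cores TTCCCGC and TTGGCGC. The stretches of 4 genes are shown because they hold the most MSA cores (a pair of CYCB1 genes and the A-type cyclin) or belong to the gene whose level changed most regularly with ABA (TSO2). They were read from the TAIR10.1 genome by the RefSeq annotation and run 5′ to 3′ on the strand of the gene. Capitals mark the MSA core on either strand.
CYCB1;2 promoter, chr5:1861704-1861953, minus strand: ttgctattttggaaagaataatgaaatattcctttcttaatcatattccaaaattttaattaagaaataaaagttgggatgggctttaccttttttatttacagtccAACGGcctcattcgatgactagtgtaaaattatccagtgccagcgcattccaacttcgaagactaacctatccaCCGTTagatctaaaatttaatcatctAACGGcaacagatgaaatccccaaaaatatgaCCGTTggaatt
CYCB1;1 promoter, chr4:17624309-17624558, minus strand: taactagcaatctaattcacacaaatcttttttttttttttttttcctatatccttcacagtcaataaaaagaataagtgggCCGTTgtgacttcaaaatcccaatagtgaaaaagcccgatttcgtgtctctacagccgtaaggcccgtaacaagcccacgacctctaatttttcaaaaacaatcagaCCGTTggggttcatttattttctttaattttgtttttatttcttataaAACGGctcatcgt
CYCA1;1 promoter, chr1:16777353-16777602, minus strand: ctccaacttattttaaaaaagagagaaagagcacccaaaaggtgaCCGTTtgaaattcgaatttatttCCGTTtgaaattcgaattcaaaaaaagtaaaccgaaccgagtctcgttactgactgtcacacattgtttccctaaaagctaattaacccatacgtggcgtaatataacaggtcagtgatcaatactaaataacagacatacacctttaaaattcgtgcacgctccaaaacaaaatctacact
TSO2 promoter, chr3:9981621-9981870, minus strand: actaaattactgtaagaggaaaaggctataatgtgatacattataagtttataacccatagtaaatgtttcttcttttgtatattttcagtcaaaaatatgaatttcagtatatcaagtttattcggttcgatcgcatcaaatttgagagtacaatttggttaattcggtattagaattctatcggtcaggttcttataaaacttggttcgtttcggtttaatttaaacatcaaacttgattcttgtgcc

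The MSA core was present in 6 of the 10 promoters, and 20.6% of 27443 promoters of the same length held it. CYCB1;2 held 4 cores, CYCB1;1 held 3 and CYCA1;1 held 2. At least 2 cores were found in 3 of the 10 members, against 3.62% of all promoters, and at least 3 cores in 2 members, against 0.736%. CYCD3;1, CDKB2;2 and KN each held 1, while CYCB1;4, CDKB1;1, CDKB2;1 and TSO2 held none in this window. Counted from the annotated start as 0, the left ends of the 4 cores of CYCB1;2 were at -143, -69, -43 and -11, and those of the A-type cyclin at -205 and -182. Neither E2F core was found in any of the 10 windows, and 1.92% of all promoters held one or the other. A match is a run of letters only and does not show binding.

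**Figure D1:**
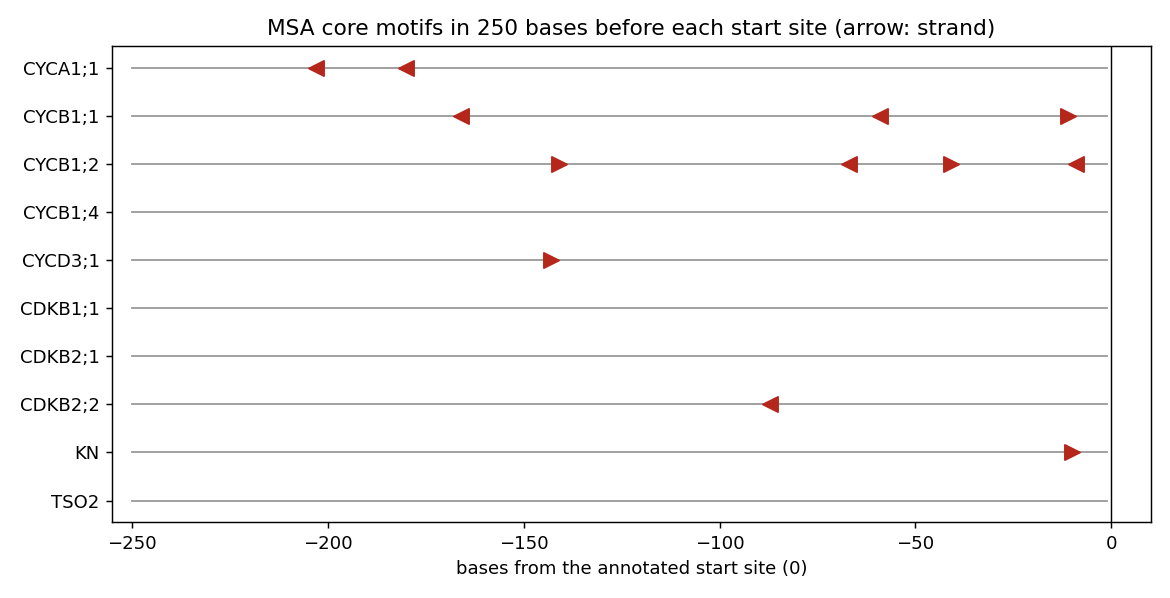
Position of each MSA core (triangles, pointing in the direction of the strand) in the 250 bases before the annotated start of each member, where the horizontal axis is the distance from the start in bases. CYCB1;2 holds 4 cores, CYCB1;1 holds 3 and CYCA1;1 holds 2, and 4 members hold none.

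All 10 genes were expressed at moderate to high levels in seedlings. TSO2 was the highest, with a median of 91.34 FPKM over 24 libraries, which placed it at percentile 94.5 of the genes tested by level. KN followed with a median of 46.8 FPKM, then CYCB1;2 and CDKB2;1, both at 25.38, and CYCD3;1 at 23.0. CYCA1;1, CDKB2;2 and CYCB1;4 had medians of 13.0, 12.24 and 11.64 FPKM. The lowest were CYCB1;1 at 9.12 and CDKB1;1 at 9.05 FPKM, near the middle of all genes tested. Among the mitotic cyclins, CYCB1;2 was above both CYCB1;1 and CYCB1;4 in every library. Between the lowest and the highest library each gene varied by 1.87 to 2.45 times. The lowest count behind any of these values was 138 fragments, for CDKB1;1, where counting alone gives a coefficient of variation of 8.51%. CDKB1;1 shares at most 41 identical bases in a row with its paralogue CDKB1;2, and CDKB2;1 shares at most 29 with CDKB2;2. The sources used here do not say how the counting treated reads that match both.

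The 10 genes went up and down together from library to library. Within groups, the 45 pairs of members correlated at a median r of 0.70 (lowest 0.272, highest 0.902), and over all 24 libraries at a median of 0.77. These are descriptions over libraries that share depth and tissue make-up, and they mean that the members are not 10 separate observations of a treatment. CDKB1;1 followed the others least, with a median within-group r of 0.461, and CYCA1;1 most, with 0.777. Averaged over the members on the log2(FPKM + 1) scale and centred, the group means ran from -0.38 in the labelled combination without ABA to 0.26 in FyPP3DN with ABA. Replicates spread widely around these means, from -0.002 to 0.50 in FyPP3DN with ABA and from -0.55 to -0.22 in the lowest group.

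By group mean, the order of the levels was much the same for most members. The labelled combination without ABA had the lowest mean for 9 members, and for TSO2 the lowest was WT without ABA. FyPP3DN with ABA had the highest mean for 8 members, and nrp1 nrp2 with ABA for CDKB2;1 and TSO2. KN ran from 36.4 ± 2.17 FPKM (SD, n = 3) in the lowest group to 57.2 ± 13.2 in the highest. CYCB1;2 ran from 19.5 ± 3.77 to 30.4 ± 5.81, CDKB2;2 from 9.56 ± 1.48 to 14.9 ± 4.05, and CYCB1;1 from 6.72 ± 1.12 to 11.7 ± 1.92 FPKM. In the last 3 of these genes, each step between neighbouring means among the other 6 groups was smaller than the larger SD of the 2 neighbours. For TSO2 the 2 lowest groups, WT and the labelled combination without ABA, were at 67.1 ± 6.39 and 69.0 ± 5.65 FPKM and did not separate. Its 2 highest, nrp1 nrp2 and FyPP3DN with ABA, were at 121 ± 15.9 and 120 ± 13.7 FPKM and did not separate either.

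**Figure D2:**
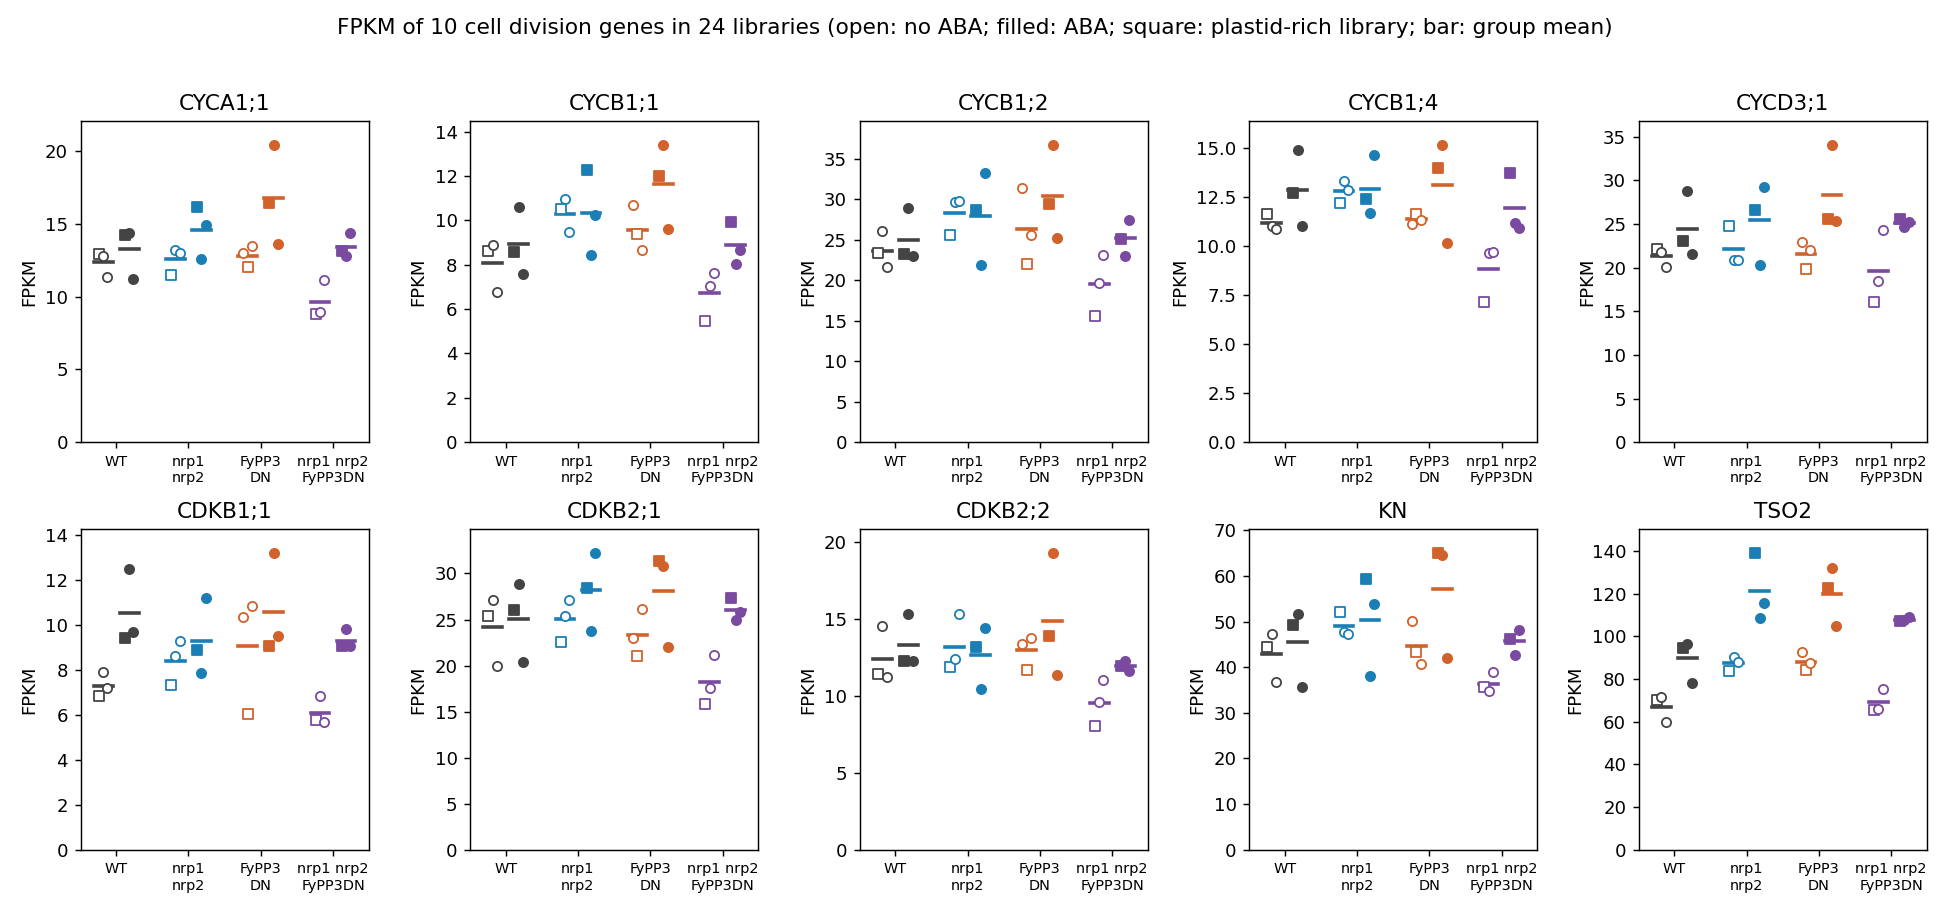
FPKM of each member in the 24 libraries by genotype (horizontal axis), without ABA (open) and with ABA (filled), where squares are plastid-rich libraries and bars are group means of 3. TSO2 with ABA lies above TSO2 without ABA in each genotype, while the other genes overlap in at least 1 genotype.

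The first comparison asks how each genotype responded to ABA. TSO2 rose with ABA in all 4 genotypes, by 0.41 to 0.64 on the log2(FPKM + 1) scale. It was the only member called higher in WT, nrp1 nrp2 and FyPP3DN, although all 10 log2 differences were positive in WT and in FyPP3DN. In the labelled combination, CYCA1;1, CDKB1;1 and CDKB2;1 were called higher as well. No member was called lower in any genotype. Here and below, a gene that rose or fell is one called higher or lower by the test.

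In WT, TSO2 was at 70.1, 71.41 and 59.75 FPKM without ABA and at 94.66, 96.4 and 78.04 with ABA. All 3 treated libraries were above all 3 controls, and the difference was 0.41 ± 0.11 on the log2(FPKM + 1) scale (SE, adjusted p = 0.0194). This made 1 of 10 members called higher, where 4.47% of all genes tested were called higher. CDKB1;1, a B-type CDK, was at 6.82, 7.89 and 7.21 FPKM without ABA and 9.44, 12.48 and 9.7 with it. These groups did not overlap either, as for 11.8% of all genes in the same direction, but the log2 difference of 0.47 ± 0.17 had an adjusted p of 0.131 (0.0415 with library type as a block). KN, the cell plate syntaxin, was at 44.33, 47.33 and 36.7 FPKM without ABA and 49.25, 51.68 and 35.63 with it, with replicate 3 low in both groups. It and the other 7 members overlapped between the groups, with log2 differences of 0.05 to 0.18, and over all 10 the 95% intervals ran from -0.28 to 0.83. TSO2 lost its call when control replicate 3, ABA replicate 1 or ABA replicate 2 was left out, with log2 differences of 0.33, 0.37 and 0.36 (highest adjusted p = 0.132).

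In nrp1 nrp2, TSO2 was at 83.56, 90.24 and 88.14 FPKM without ABA and at 139.14, 108.74 and 115.73 with it. The treated libraries were again all higher, by 0.46 ± 0.11 log2 units (adjusted p = 0.0101), beside 3.14% of all genes called higher. The other 9 members overlapped between the groups, with log2 differences of -0.06 to 0.20, and 3 of them, CYCB1;1, CYCB1;2 and CDKB2;2, were slightly negative at -0.01, -0.04 and -0.06. The count of positive differences was 7 of 10, and it was 9 after scaling by median of ratios and 8 after quantile normalization. The TSO2 call was lost without control replicate 1 or ABA replicate 1, at log2 differences of 0.43 and 0.36 (highest adjusted p = 0.0839).

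In FyPP3DN, TSO2 was at 92.43, 84.06 and 87.41 FPKM without ABA and 122.53, 132.06 and 104.97 with it. The groups did not overlap, and the difference was 0.44 ± 0.11 log2 units (adjusted p = 0.0168), where 2.92% of all genes were called higher. The A-type cyclin at 12.99, 12.04 and 13.45 against 16.41, 20.41 and 13.6 FPKM and the D-type cyclin at 22.99, 19.83 and 22 against 25.58, 34.04 and 25.34 FPKM were also higher in every treated library, as were 9.14% of all genes. Their log2 differences of 0.35 ± 0.13 and 0.37 ± 0.15 did not pass the adjustment (adjusted p = 0.137 and 0.184). KN was at 50.08, 43.3 and 40.8 FPKM without ABA and at 65.1, 64.6 and 42 with it, so ABA replicate 3 lay within the controls. In every member but CDKB2;1 and KN, ABA replicate 2 was the highest of the 3 treated libraries. Without ABA replicate 1 or 2 the TSO2 call was lost, at log2 differences of 0.42 and 0.36 (highest adjusted p = 0.11), and without ABA replicate 3 a total of 2 members was called.

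The labelled combination gave the highest counts. TSO2 was at 65.41, 66.02 and 75.48 FPKM without ABA and 107.1, 107.56 and 108.8 with it. The 3 treated libraries were nearly equal and all above the controls, a difference of 0.64 ± 0.11 log2 units (adjusted p = 0.000331). CDKB1;1 went from 5.78, 6.83 and 5.68 FPKM to 9.06, 9.82 and 9.05, with no overlap (0.54 ± 0.17 log2 units, adjusted p = 0.0495). CDKB2;1 went from 15.8, 17.6 and 21.16 FPKM to 27.37, 24.96 and 25.79 (0.50 ± 0.16, adjusted p = 0.0405). CYCA1;1 went from 8.82, 8.95 and 11.16 FPKM to 13.15, 12.76 and 14.37 (0.44 ± 0.13, adjusted p = 0.0299). In all 3 genes the treated libraries were above every control. Thus 4 of 10 members were called higher, where 6.80% of all genes were, and 9 of the 10 had groups that did not overlap, the exception being CYCB1;2, where 19.3% of all genes lay wholly higher without overlap. Among the markers of dividing tissue, the stem cell niche gene WOX5, 1 of 6 meristem markers tested, and the stomatal gene MUTE, 1 of 6, rose in the same comparison. The log2 differences were 0.71 and 0.78 (adjusted p = 0.0321 and 0.0125), at low levels, from 1.06 to 2.29 FPKM and from 0.42 to 1.44 FPKM. Differences were positive for all 6 meristem markers and for 4 of the 6 stomatal ones. The part of these markers in the members' differences was not tested.

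The other 6 members had log2 differences of 0.30 to 0.40 with adjusted p from 0.0641 (CYCB1;4) to 0.279 (CDKB2;2 and KN). Over all genes 1326 were called higher and 901 lower in this genotype, a split that became 1179 and 1187 after scaling by median of ratios, or 1113 and 1189 after quantile normalization. Only TSO2 was called in the plastid-poor libraries alone (adjusted p = 0.0173). When single libraries were left out, TSO2 was the 1 member still called in 5 of 6 cases, all but the one without control replicate 3. The CDKB1 gene was lost in all 6, with log2 differences of 0.50 to 0.62. With the replicate number as a block its adjusted p was 0.0507.

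The count of called members differed between genotypes, but the responses themselves were not shown to differ. The differences between ABA responses were tested directly for each line against WT, and no member was called (unadjusted p under 0.05 for 0 of 10 members in each of the 3 tests). Over all genes limma called 0%, 0.144% and 0% (353 and 276 genes at an unadjusted p under 0.05 where the share is 0, and 0 calls after either scaling) for nrp1 nrp2, FyPP3DN and the labelled combination. For TSO2 the difference from the WT response was 0.05, 0.03 and 0.23 log2 units in the same order, with 95% intervals of -0.27 to 0.37, -0.29 to 0.34 and -0.09 to 0.55. For CDKB2;1 in the labelled combination it was 0.45 (-0.01 to 0.91). The 3 tests share the WT libraries.

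Averaged over the 4 genotypes, all 10 log2 differences with ABA were positive. This held after scaling by median of ratios, after quantile normalization and within both library types. Of the 10, 6 passed the test, where 12.8% of all genes were called higher and 11.5% lower. TSO2 went from a mean of 77.83 to 109.6 FPKM (0.49 ± 0.05 log2 units, adjusted p = 6.05e-07), and its highest adjusted p over the 24 leave-one-out fits was 2.46e-06. CDKB1;1 followed at 0.34 ± 0.09 (adjusted p = 0.00609), then the D-type cyclin at 0.27 ± 0.08 (adjusted p = 0.00997) and the A-type cyclin at 0.27 ± 0.07 (adjusted p = 0.00372). CDKB2;1 at 0.24 ± 0.08 and CYCB1;4 at 0.19 ± 0.07 passed narrowly (adjusted p = 0.0297 and 0.0474) and lost the call in 10 and 18 of the 24 leave-one-out fits. The 4 that did not pass were CYCB1;1 at 0.18, KN at 0.19, CYCB1;2 at 0.15 and CDKB2;2 at 0.12, with adjusted p of 0.0917, 0.132, 0.218 and 0.307.

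The median of the 10 members was 0.21 log2 units and that of all genes 0.002; without TSO2 the median of the other 9 was 0.19. Within plastid-rich libraries, which are 1 per group, the averaged differences were 0.24 to 0.60, and within plastid-poor libraries 0.06 to 0.43. In the plastid-poor libraries alone, TSO2 and the CDKB1 gene were called (adjusted p = 0.000594 and 0.0379). Between the library types themselves, the CDKB1 gene differed by -0.23 ± 0.08 log2 units, lower in plastid-rich libraries (adjusted p = 0.0236) and no other member differed by the test, where 41.5% of all genes did. The plastid-rich library was replicate 1 in every group but FyPP3DN without ABA, where it was replicate 2. With the replicate number as a block, type and number are thus told apart only through that group. In that fit 20.8% of genes were called and the difference of the CDKB1 gene was -0.45 (adjusted p = 0.0176), still the 1 member called. That gene was at 6.02 FPKM in the plastid-rich library of that group and at 10.37 and 10.85 in the others, so the fit is no separate check. In the fit without the block, the call was lost under both scalings and without FyPP3DN control replicate 2 (log2 difference -0.15).

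**Figure D3:**
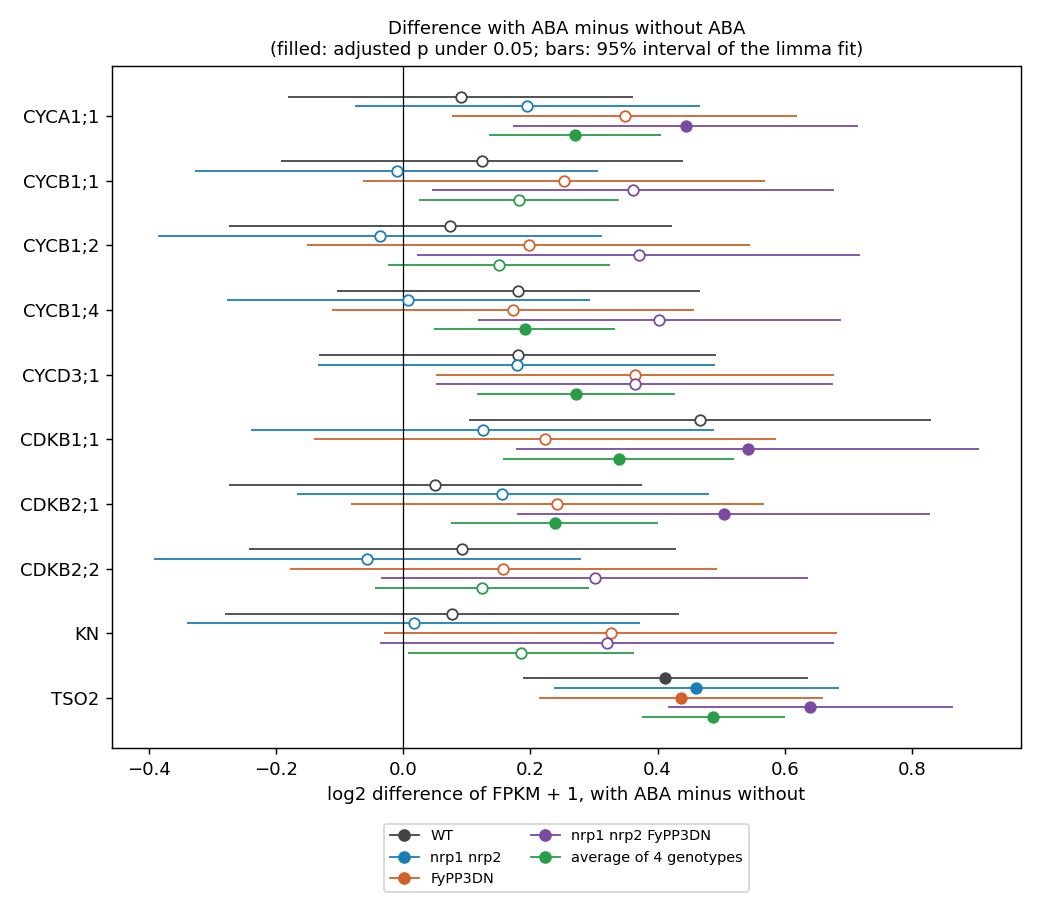
Difference with ABA minus without ABA of each member on the log2(FPKM + 1) scale, in each genotype and averaged, where filled points have an adjusted p under 0.05 and bars are 95% intervals. TSO2 is filled in every comparison, and all 10 averaged differences lie above 0.

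Other cell cycle genes were followed in the same averaged comparison. Of 92 further genes in 7 lists (cyclins, CDKs, CDK inhibitors, transcription regulators, activators of the anaphase-promoting complex APC/C, DNA replication, and mitosis and cytokinesis), 90 were tested, as SMR5 and ORC1A were too low. Averaged over genotypes, 15 rose and 2 fell with ABA, with a median log2 difference of 0.11. These are 16.7% and 2.22% of the 90, beside 12.8% of all genes called higher and 11.5% called lower. The counts of the single lists are small and several are near those shares. Among the other cyclins 6 of 22 rose, including CYCD4;2 at 0.33, CYCD1;1 at 0.32 and CYCB2;3 at 0.26 (adjusted p = 0.0102, 0.0165 and 0.0157). In DNA replication 2 of 16 rose, RNR2A, which like TSO2 encodes a small subunit of ribonucleotide reductase, at 0.25 (adjusted p = 0.00321) and the licensing factor CDT1A at 0.25 (0.00601).

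Of 14 CDK inhibitors tested 2 rose and 1 fell, near the shares of all genes. SMR1 rose by 0.55 ± 0.15 log2 units, from a mean of 21.5 to 31.4 FPKM (adjusted p = 0.00984), and SMR7 rose at low level from 0.424 to 0.824 FPKM (0.34, adjusted p = 0.0493). SIM (SIAMESE), a related inhibitor, fell by 0.67 ± 0.15 log2 units, from 16.9 to 10.5 FPKM (adjusted p = 0.00223). The other 11 were not called. Of the transcription regulators only MYB3R4, an activator of mitotic genes, rose (0.23, adjusted p = 0.0388), 1 of 12. In mitosis and cytokinesis 4 of 17 rose, among them the cell plate SNARE NPSN11 at 0.26 and the spindle checkpoint gene BUB3.1 at 0.27 (adjusted p = 0.0019 and 0.0075). SNAP33, a SNARE that partners KN, fell by 0.18 (adjusted p = 0.00983). No CDK or CKS gene and no APC/C activator was called, of 4 and 5 tested.

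Within single genotypes few of the 90 were called. None was called in WT or nrp1 nrp2. CDC6, a replication licensing factor, rose in FyPP3DN by 0.39 (adjusted p = 0.0311). NPSN11, BUB3.1 and the kinesin gene ATK5 rose in the labelled combination by 0.46, 0.53 and 0.49 (adjusted p = 0.0109, 0.0193 and 0.0318).

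Markers of the tissues where cells divide were followed in the same averaged comparison, where 12.8% of all genes were called higher. Of 8 meristem markers 6 were tested, all 6 had positive log2 differences and 2 rose, the root stem cell niche gene WOX5 by 0.59 (from 1.31 to 2.47 FPKM, adjusted p = 0.000239) and the organ growth gene ANT by 0.24 (adjusted p = 0.0433). WUS was at 0 in 22 libraries and CLV3 in 11. Among the single genotypes WOX5 rose in FyPP3DN, by 0.84 (adjusted p = 0.0199), as well as in the labelled combination. The summed level of the 8 markers was 17.4 to 25.5 FPKM without ABA (median 23.3) and reached 37.0 with it (median 27.5). The lowest treated sum, in nrp1 nrp2, lay below the median without ABA, so the ranges overlap. The lowest sum was in the labelled combination without ABA and the highest in FyPP3DN with ABA, the groups in which most members were lowest and highest. ANT was the largest part of these sums, with a median of 15.3 FPKM over 24 libraries. AIL6 had a median of 3.73 FPKM, and the other meristem markers had medians of 0 to 1.84. Of 6 stomatal lineage markers MUTE alone rose, at low level from 0.794 to 1.31 FPKM (0.39, adjusted p = 0.00542). Differences were positive for 4 of the 6, with a list median of 0.046. The stomatal sum was 24.3 to 40.6 FPKM without ABA and 26.7 to 41.1 with it. No root marker was called, of 5 tested, and they summed to 598 to 872 FPKM in FyPP3DN with ABA and to at least 944 in all other libraries. These sums are nearly all BGLU23, with a median of 1260 FPKM over 24 libraries, where the other root markers had medians of 0.945 to 9.64. By single marker, 0 of 5 had a positive log2 difference with ABA in FyPP3DN (median -0.60). Against WT with ABA 1 of 5 was positive in FyPP3DN (median -0.53). Averaged over genotypes, 3 of 5 were positive with ABA (median 0.001). In the green shoot list LHCB2.1 alone rose, by 0.42 (adjusted p = 0.0104), and the sums were 18200 to 23700 FPKM without ABA and 19700 to 24300 with it. Of 6 lateral root founder markers 1 was tested and it was not called. The part of tissue make-up in the members' differences was not tested.

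**Figure D4:**
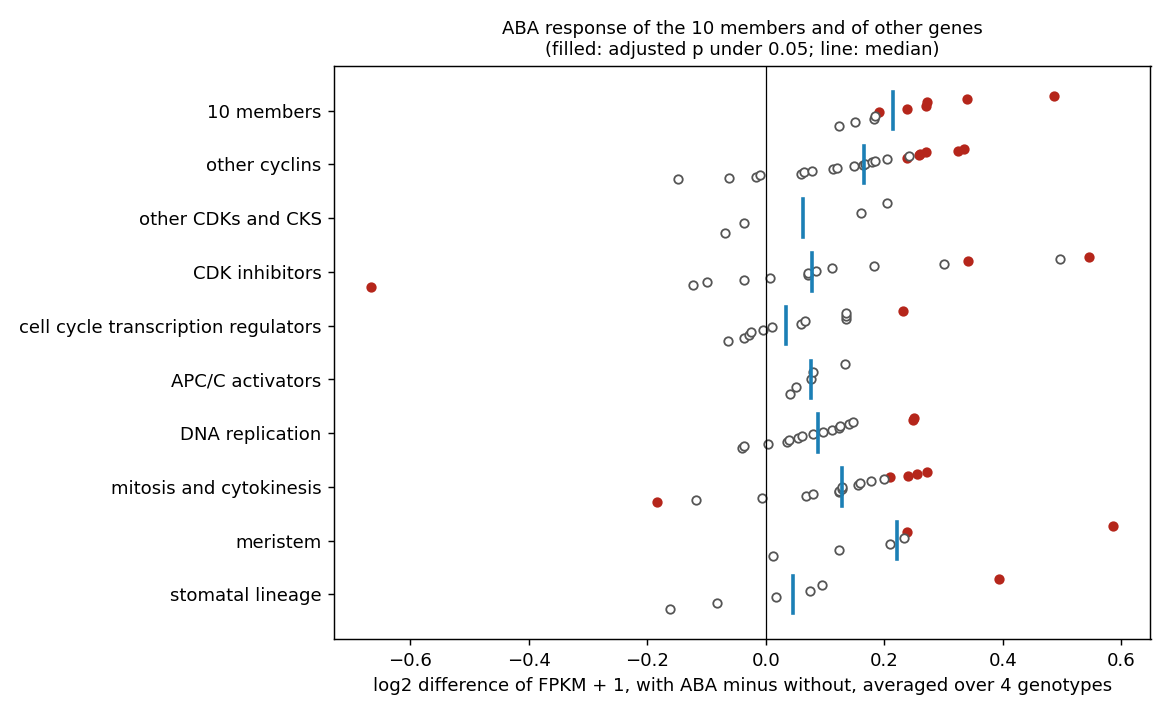
Averaged log2 difference with ABA minus without ABA of the 10 members and of the genes tested in 9 lists, where filled points have an adjusted p under 0.05 and vertical lines are list medians. The members have a median of 0.21 with 6 filled, and SIM stands apart at the far left with -0.67.

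The next comparisons ask how the lines differed from WT at the same treatment. No member was called in any of 6 such comparisons, where 0.0923%, 0.579% and 0.0821% of all genes were called without ABA and 0.0667%, 0.892% and 0.0872% with ABA, in the order nrp1 nrp2, FyPP3DN and the labelled combination. At an unadjusted p under 0.05 there were 2, 1 and 4 members without ABA and 1, 3 and 1 with ABA. The shares of all genes under the same threshold were 4.18%, 12.7% and 4.43% without ABA and 2.32%, 11.2% and 2.80% with ABA, so that 1 of 10 in FyPP3DN without ABA is near the background. TSO2 came nearest: it was higher than WT in every library of nrp1 nrp2 and FyPP3DN at both treatments, by 0.38 to 0.43 log2 units. Of all genes, 5.27% and 6.13% lay wholly higher without overlap in these lines without ABA, and 1.57% and 6.54% with ABA. In nrp1 nrp2 without ABA 4 members did so, TSO2 among them. In the labelled combination with ABA, TSO2 also lay wholly above WT, as did 4.65% of all genes. The adjusted p of TSO2 for FyPP3DN against WT with ABA was 0.083, or 0.0451 with library type as a block. That comparison gave 1 called member when FyPP3DN ABA replicate 3 was left out. All 6 comparisons use the WT libraries of their treatment.

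Averaged over both treatments, TSO2 was higher than WT in both single lines. It averaged 104.3 FPKM in nrp1 nrp2 and 103.9 in FyPP3DN against 78.39 in WT. The log2 differences were 0.40 ± 0.08 in each line (adjusted p = 0.032 and 0.00803), and TSO2 was the 1 member of 10 called in each, beside 0.0513% and 0.713% of all genes called higher. In the labelled combination it averaged 88.4 FPKM, and the log2 difference of 0.15 had a 95% interval of -0.004 to 0.313 (adjusted p = 0.891, no member called, beside 0.195% of genes). The nrp1 nrp2 call was lost in 8 of 12 leave-one-out fits (log2 differences of 0.35 to 0.42, highest adjusted p = 0.108), namely without WT control replicate 1 or 3, WT ABA replicate 3, any nrp1 nrp2 control, or nrp1 nrp2 ABA replicate 1 or 3. The FyPP3DN call was kept in all 12 (highest adjusted p = 0.0298). In plastid-poor libraries alone the log2 differences were as large, at 0.405 in nrp1 nrp2 and 0.446 in FyPP3DN, but neither was called (adjusted p = 0.466 and 0.0896).

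The other 9 members lay within 0.005 to 0.29 log2 units above WT in the 2 single lines, with 95% intervals from -0.25 to 0.51. In the labelled combination they lay between -0.24 and -0.04, none called. Of the 90 other cell cycle genes tested, only CYCD3;3, another D-type cyclin, was called in these averages, higher in FyPP3DN by 0.35 ± 0.09 (27.2 against 21.0 FPKM, adjusted p = 0.0359).

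**Figure D5:**
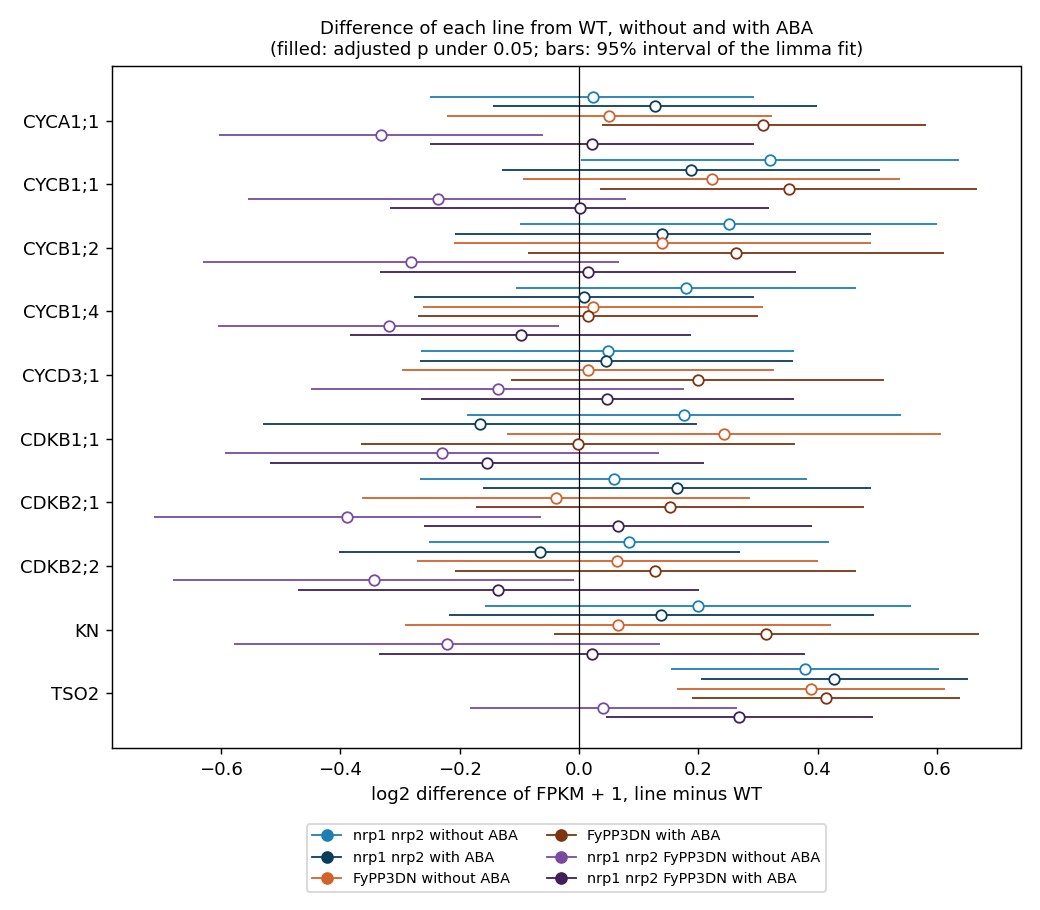
Difference of each line from WT on the log2(FPKM + 1) scale, without ABA (lighter) and with ABA (darker), with 95% intervals. Every point is open, since no adjusted p was under 0.05. TSO2 lies at 0.38 to 0.43 in nrp1 nrp2 and FyPP3DN, and 9 members lie below 0 in the labelled combination without ABA.

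The last comparison sets the labelled combination against nrp1 nrp2. Without ABA all 10 members were lower, by -0.18 to -0.56 log2 units, but none passed the adjustment over all genes, of which 0.0462% were called. CYCB1;1, the G2 and mitosis reporter gene, was at 10.5, 10.94 and 9.46 FPKM in nrp1 nrp2, against 5.47, 7.05 and 7.64 in the labelled combination. The groups were apart, a log2 difference of -0.56 with a 95% interval of -0.88 to -0.24 (adjusted p = 0.153). CYCB1;4 was at 12.17, 13.33 and 12.84 against 7.15, 9.63 and 9.67 FPKM (-0.50, adjusted p = 0.159). KN, the cell plate syntaxin, was at 51.99, 47.82 and 47.34 against 35.58, 34.77 and 38.87 FPKM (-0.42, adjusted p = 0.356). In 9 of the 10 members the groups did not overlap and the unadjusted p was under 0.05, the exception being the D-type cyclin. Of all 19500 genes, 2442 lay wholly lower without overlap and 11.3% had an unadjusted p under 0.05.

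The same sign held under both scalings. Within plastid-poor libraries 9 of 10 were negative (lowest -0.46, highest 0.02), and within the plastid-rich pair all 10 were (-0.83 to -0.30). The members vary together, so these are not separate observations. The summed meristem markers, with ANT as the largest part, were 21.4 to 25.5 FPKM in nrp1 nrp2. In the labelled combination they were 17.4 to 23.4 FPKM, and these ranges overlap. The stomatal lineage sums were 37.4 to 40.6 against 28.0 to 32.0 FPKM and the root marker sums, nearly all BGLU23, 1370 to 2100 against 1150 to 1270 FPKM, and neither pair of ranges overlaps. The median log2 difference was -0.14 for the meristem list (1 of 6 positive), -0.43 for the stomatal lineage (1 of 6 positive) and -0.58 for the root list (0 of 5 positive), beside -0.42 for the members and -0.05 for all genes, and no marker was called. Of the 90 other cell cycle genes tested, 12 had positive differences, with a median of -0.24. The part of the marker tissues in the members' differences was not tested. With ABA the 2 groups overlapped in all 10 members, with log2 differences of -0.19 to 0.01, a 95% interval between -0.50 and 0.38 over all members, and none called, beside 0.0103% of genes.

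Across 24 libraries, the 5 genes outside the members that followed their mean most closely were AT3G53190 (r = 0.936), AT4G26660 (0.935), AT4G03100 (0.934), AT3G02640 (0.933) and AT5G16250 (0.932), by Pearson's r to the centred mean on the log2(FPKM + 1) scale. Over the 8 group means they were AT3G51720 (0.988), AT3G12870 (0.986), ENODL15 (0.986), TRM7 (0.986) and AT1G30690 (0.984). The values describe likeness over libraries that share depth and tissue, were picked from 19500 genes, and carry no test.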

How the data were processed

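Total RNA from whole seedlings was sequenced by the authors, 3 libraries in each of 8 groups. Trimmomatic 0.30, HISAT2 2.0.1 and the TAIR10 build come from the submitters' processing notes. Per the labels' protocols, libraries had poly(A) selected or rRNA removed, and the choice for each library is not stated. The sources used here name no counter, annotation or strand setting. The deposited values are FPKM, rounded to 2 decimals, for 32833 genes, and no counts were used. Depth was read from genes shorter than 400 bases, where 99.8% to 100% of the values tested lay within 0.1 of a whole fragment. Genome sequence and annotation were TAIR10.1 from RefSeq, whose gene table matched 32548 of the 32833 IDs.

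FPKM was used as deposited, as log2(FPKM + 1), for the 19500 genes that reached 1 FPKM in 3 or more libraries. Adding 1 understates the change of low genes. All 24 libraries entered a limma 3.58.1 model (R 4.3.3) of the 8 group means, with an intensity trend. Tests were two-sided. In each of 19 comparisons the Benjamini-Hochberg method adjusted p over all genes tested, and an adjusted p under 0.05 is a call. The library type comparison added a term for the type to the same model. The scripts were tested on simulated data. All 10 members were named in every comparison, and from each list up to 3 called genes with the smallest adjusted p. The members and lists were chosen with earlier results of these data known.

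The alternatives were other filters on low values, a pseudocount of 0.1, median-of-ratios scaling, quantile normalization, a fit of only the groups compared, no intensity trend, library type as a block, plastid-poor libraries alone, the replicate number as a block, and leaving out each library. Residuals of libraries with the same replicate number correlated above 0.1 in every pair in 14 of the 19 comparisons (0.153 to 0.858). In the other 5, which use FyPP3DN without ABA, the lowest value was -0.694. Where the numbers paired, this rests on the data and not on the labels. Replicate 1 was the plastid-rich library in every group but FyPP3DN without ABA, where it was replicate 2. In the 14 comparisons that paired, these correlations therefore cannot tell pairing by number from library type. No 2 libraries held identical values. Protein sequences were not used here.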

Additional observations from a re-analysis of the deposited data

How the results depend on the processing

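Every called member kept its direction under each alternative. Members called changed as follows. A fit of only the groups compared gave 0 in place of 1 for the ABA response in WT, nrp1 nrp2 and FyPP3DN and for nrp1 nrp2 and FyPP3DN against WT averaged over treatments (TSO2 adjusted p = 0.0952, 0.11, 0.196, 0.194 and 0.0689). Plastid-poor libraries alone, with 2 per group, gave 0 in the same 5 comparisons, 1 in place of 4 for the labelled combination, and 2 in place of 6 for the averaged ABA response; fewer libraries entered that fit. Library type as a block gave 2 in WT (CDKB1;1 and TSO2) and 1 in place of 0 for FyPP3DN against WT with ABA. No filter on low values gave 2 (CYCA1;1 and TSO2) in place of 4 for the labelled combination, where more genes were tested. Both scalings gave 0 in place of 1 between library types. The cause of the other changes was not tested.

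Leaving out single libraries gave 0 to 1 member in WT, 0 to 1 in nrp1 nrp2, 0 to 2 in FyPP3DN, 1 to 4 in the labelled combination, 4 to 8 for the averaged response, 0 to 1 for FyPP3DN against WT with ABA, 0 to 1 for nrp1 nrp2 against WT averaged, 1 for FyPP3DN against WT averaged, and 0 to 1 between library types. The replicate block changed 1 call, CDKB1;1 in the labelled combination (adjusted p = 0.0507), where 3 members stayed called, and changed no other call. Between library types the block left 20.8% of all genes called in place of 41.5%, in a fit where type and replicate number are told apart only through FyPP3DN without ABA. For the lowest member, CDKB1;1, the counting error is 8.51% at its lowest count of 138 fragments, which is in FyPP3DN without ABA. The replicate coefficient of variation of CDKB1;1 in that group was 29.3%, the highest of the 8 groups. The lowest were 4.74% in the labelled combination with ABA and 7.41% in WT without ABA. The part of counting error in this spread was not tested.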
